A study of Schizosaccharomyces pombe with 4 samples.

Results

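The genes cdc15, imp2, cdc4 and myp2 encode parts of the contractile ring of the fission yeast Schizosaccharomyces pombe, and their starts were examined for peaks of the transcription factors Fkh2, Sak1 and Sep1, mapped by chromatin immunoprecipitation and sequencing (ChIP-seq). The contractile ring is a band of actin filaments and type II myosin that assembles at the cell middle in mitosis and narrows as the division septum is built behind it. Cdc15 and Imp2 are F-BAR proteins, which bind the plasma membrane and hold ring proteins to it, Cdc4 is a light chain shared by the ring's myosins, and Myp2 is a type II myosin heavy chain. Fkh2 and Sep1 are forkhead factors of the transcription programme of mitosis, and forkhead proteins recognise the word GTAAACA. Sak1 belongs to the RFX family, whose members bind paired half-sites of the type GTTGCC, often as an inverted pair.

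The members were chosen by the readout itself: they are genes of the ring with a peak of both Fkh2 and Sak1, so their having such peaks is a description and not a test. They are 4 of 5113 nuclear protein-coding genes of the annotation. A gene counted as bound when a peak centre lay from 1000 bp upstream to 250 bp downstream of its annotated 5′ end. All 4 had a Fkh2 peak, which 2.84% of all 5113 genes had (145 genes), and all 4 had a Sak1 peak, which 1.06% had (54 genes). Both together were in reach of the 4 members and of 0.88% of all genes (45 genes). No member (0 of 4) had a Sep1 peak, which 0.176% of all genes had (9 genes). By this rule 8 of the 210 deposited peaks belong to the members: 4 of 152 in the Fkh2 list, 4 of 47 in the Sak1 list and 0 of 11 in the Sep1 list. The strains JLP1586, JLP1792 and JLP1670 carried a C-terminal TAP tag on Fkh2, Sak1 and Sep1, and the strain F108, which carried none, was the control. All were grown as asynchronous cultures in YES medium, and the immunoprecipitation used IgG beads, which bind the tag. The Sep1-TAP culture alone is labelled with a treatment, 1 mM of the proteasome inhibitor bortezomib for 45 min. Each library pools 2 experiments, so every factor has 1 list and no value here has a replicate error.

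The genes lie on chromosomes I and II. On the assembly ASM294v3, cdc15 (SPAC20G8.05C) spans I:1399200-1402936 on the minus strand with 4 exons, and imp2 (SPBC11C11.02) spans II:3347900-3350452 on the plus strand with 4 exons. The cdc4 gene (SPAP8A3.08) spans I:5329188-5331057 on the plus strand with 5 exons, and myp2 (SPAC4A8.05C) spans I:2547260-2553703 on the minus strand with 1 exon. Their annotated leaders before the start codon are short, with 50, 81, 30 and 38 bp in the same order.

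The sequence under the peaks was read for words of the forkhead and RFX families. The members were chosen for peaks of factors of these families, so such words are described and are not a trait beyond the rule. Printed here are the Sak1 peaks of the 4 genes, ended 30 bases into each gene, and the myp2 Fkh2 peak, which lies mostly apart from its Sak1 peak. At the other genes the whole Fkh2 peak lies inside the Sak1 peak. Each is written 5′ to 3′ in the direction of the gene, from the RefSeq assembly ASM294v3, with the forkhead word GTAAACA, the RFX words GTTGCCA and GTTACCA, the words GTTGCTA and GTTGTCA (seen at Sak1 peaks in earlier results of these data) and paired half-sites in capitals, on either strand. The first base of the gene is base 162 of the cdc15 line, 166 of the imp2 line, 171 of the cdc4 line and 118 of the Sak1 line of myp2.
cdc15, Sak1 peak, I:1402907-1403097, minus strand: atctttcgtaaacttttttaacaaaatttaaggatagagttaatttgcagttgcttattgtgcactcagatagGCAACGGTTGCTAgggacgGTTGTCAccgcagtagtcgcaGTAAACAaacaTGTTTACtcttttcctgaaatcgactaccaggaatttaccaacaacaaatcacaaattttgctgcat
imp2, Sak1 peak, II:3347735-3347929, plus strand: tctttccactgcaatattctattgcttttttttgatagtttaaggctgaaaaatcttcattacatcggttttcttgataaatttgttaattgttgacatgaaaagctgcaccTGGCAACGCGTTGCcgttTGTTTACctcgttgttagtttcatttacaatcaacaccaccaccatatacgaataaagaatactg
cdc4, Sak1 peak, I:5329018-5329217, plus strand: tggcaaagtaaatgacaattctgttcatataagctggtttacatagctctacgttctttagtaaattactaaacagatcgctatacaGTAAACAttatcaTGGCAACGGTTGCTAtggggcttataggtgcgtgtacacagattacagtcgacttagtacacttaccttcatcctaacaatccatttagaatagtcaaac
myp2, Sak1 peak, I:2553674-2553820, minus strand: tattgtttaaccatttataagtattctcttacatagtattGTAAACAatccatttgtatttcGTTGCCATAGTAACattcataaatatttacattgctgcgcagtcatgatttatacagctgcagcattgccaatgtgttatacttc
myp2, Fkh2 peak, I:2553446-2553600, minus strand: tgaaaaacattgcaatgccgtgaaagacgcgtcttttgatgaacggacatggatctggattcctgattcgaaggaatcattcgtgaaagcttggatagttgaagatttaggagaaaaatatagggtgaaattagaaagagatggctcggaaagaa

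Every one of the 4 gene starts held a forkhead word within 13 to 22 bp of an RFX-type word, counted between the middles of the words, but at cdc15 only with the words taken from earlier results of these data. With GTTGCCA and GTTACCA alone, the spacing at cdc15 was 129 bp. In cdc15 a pair of forkhead words lay 34 and 45 bp upstream of the start, on opposite strands, and the nearer of GTTGTCA and GTTGCTA lay 21 bp further upstream. The imp2 start had the forkhead word 32 bp and GTTGCCA 50 bp upstream. The cdc4 start had them in the other order, the forkhead word 80 bp and GTTGCCA 67 bp upstream. The myp2 start had that order too, with the forkhead word 74 bp and GTTGCCA 52 bp upstream. A forkhead word within 30 bp of any of the 4 RFX-type words was found at 36 of 5112 gene starts (0.704%, windows of 301 bp from 250 bp upstream to 50 bp downstream), at 13 of 36 Fkh2 peaks that overlapped a Sak1 peak (36.1%) and at 4 of the 116 other Fkh2 peaks (3.45%, 150 bp on each side of the centre). With GTTGCCA and GTTACCA alone these were 14 gene starts (0.274%), 6 of the 36 peaks (16.7%) and 2 of the 116 (1.72%). Counted by peak, the Fkh2 peaks of cdc15, imp2 and cdc4 are among the 13, and those of imp2 and cdc4 among the 6. The myp2 Fkh2 peak is in neither count. Of the 46 nuclear Sak1 peaks, which include those of the 4 members, 15 (32.6%) held such a pair, and 7 (15.2%) with GTTGCCA and GTTACCA alone. The 30 bp limit was chosen after the sequences were seen, and GTTGCTA and GTTGTCA are known from these same Sak1 peaks, so these shares are descriptions.

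Paired half-sites of RFX type were present at all 4 starts, in one order at cdc15, imp2 and cdc4 and in the opposite order at myp2. Only at myp2 did the pair open with GTTGC. Whether Sak1 binds both orders was not tested. At cdc15, imp2 and cdc4 GCAAC was followed after 0 to 3 bases by GTTGC. The run was GCAACGGTTGC both at cdc15, centred 83 bp upstream of its start (I:1403014-1403024), and at cdc4, 63 bp upstream (I:5329120-5329130). It was GCAACGCGTTGC at imp2, 46 bp upstream (II:3347849-3347860). This arrangement reads alike on both strands. It lay within 150 bp of the centre of no other of the 152 Fkh2 peaks or the 46 nuclear Sak1 peaks, and of none of the 11 Sep1 peaks, and it was found at 11 of 5112 gene starts (0.215%).

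In myp2 the half-sites pointed the other way: GTTGC was followed after 4 bases by GTAAC, as GTTGCCATAGTAAC, 48 bp upstream of the start (I:2553745-2553758). GTTGC followed after 2 to 5 bases by GCAAC or GTAAC, searched on both strands, lay at 5 of 46 nuclear Sak1 peaks (10.9%), of which 1 was the myp2 peak, at 5 of 152 Fkh2 peaks (3.29%) and at 13 of 5112 gene starts (0.254%). Both arrangements were searched for after the 4 sequences had been read. The MCB word ACGCGT, a word of the G1/S factor MBF searched as a comparison, lay at the imp2 start, where it overlaps the half-sites, and in the myp2 coding sequence 132 bp downstream of the start. It was found at 3.27% of gene starts and at 11.2% of Fkh2 peaks.

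**Figure D1:**
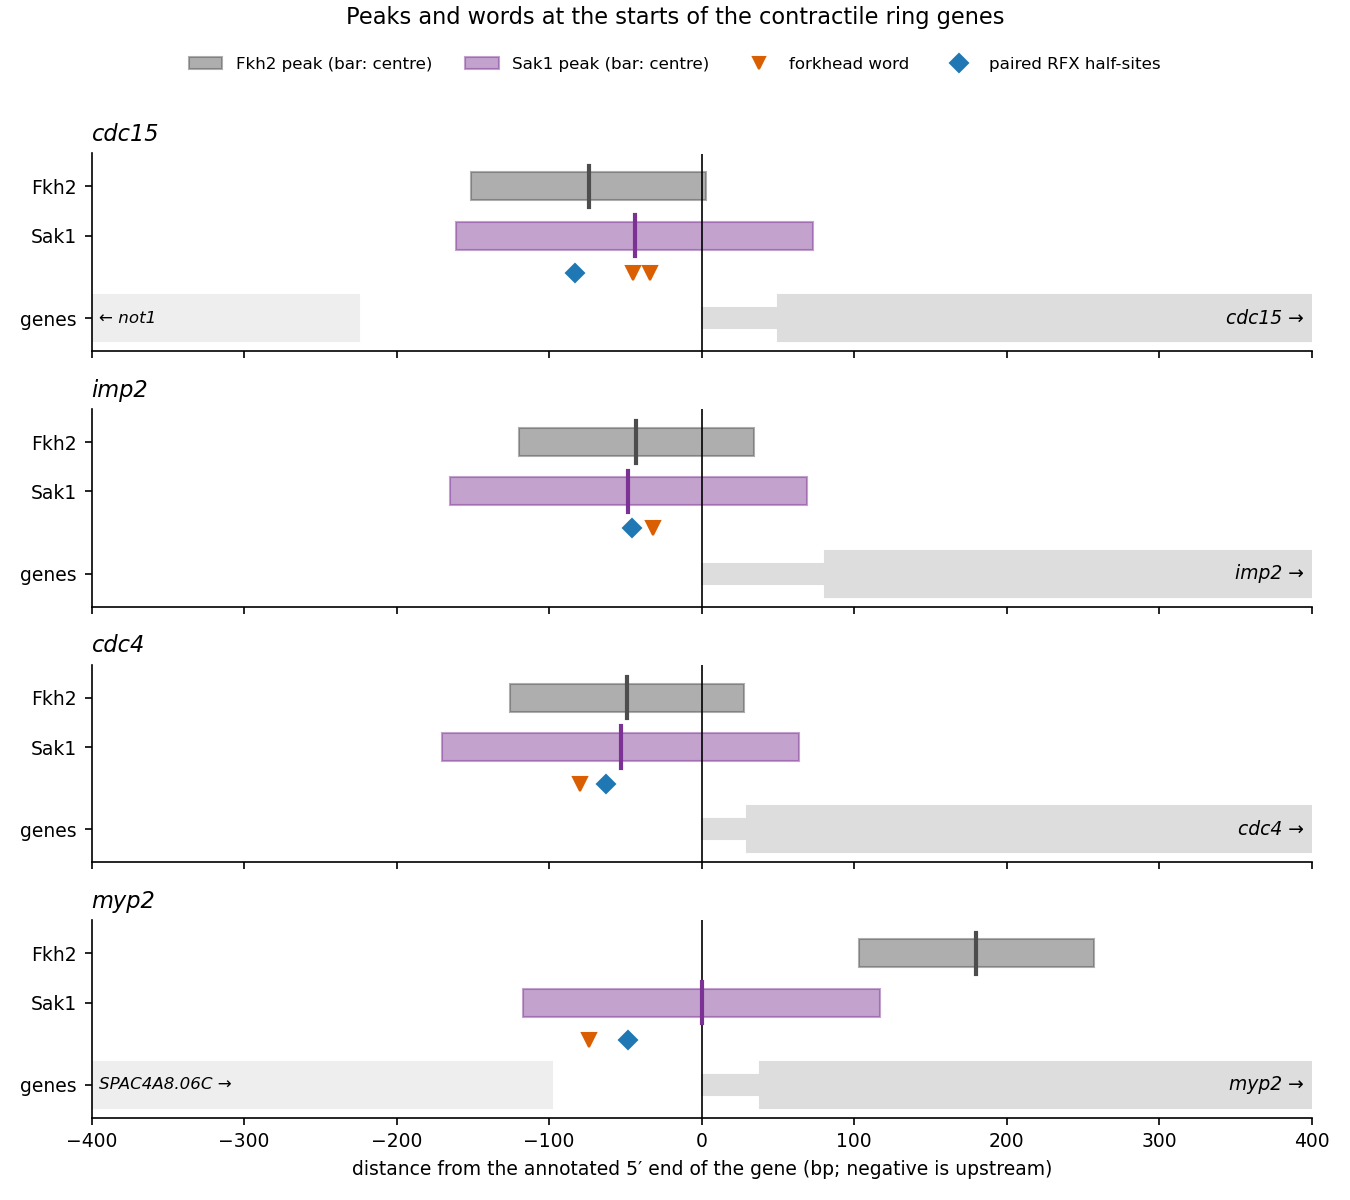
Peaks and words at the 4 gene starts, drawn by distance from the annotated 5′ end in bp (negative is upstream). Bars are the Fkh2 and Sak1 peaks with their centres, triangles forkhead words, diamonds paired half-sites, narrow grey boxes leaders, wide grey boxes coding sequence, and pale boxes upstream neighbours. At cdc15, imp2 and cdc4 words lie under both peaks, while at myp2 they lie under the Sak1 peak only and the Fkh2 centre is 180 bp downstream of the start.

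The peaks of both factors sat close to the start at cdc15, imp2 and cdc4. The Fkh2 centres lay 74, 43 and 49 bp upstream of these 3 genes, and the Sak1 centres 44, 48 and 53 bp upstream. All 6 centres fell between protein-coding genes, and most of each peak was upstream of the gene. Over all pairs of a peak and a gene in reach, the median position of the centre was 127.5 bp upstream for Fkh2 and 107.5 bp upstream for Sak1. All 6 peaks stood nearer to the start than that, but the pairs also count more distant neighbours that share a peak.

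The myp2 gene differed. Its Sak1 centre fell exactly on the annotated first base of the gene, and its Fkh2 centre lay 180 bp downstream, within the coding sequence, 142 bp beyond the start codon. Of the 146 pairs of a Fkh2 peak with a gene in reach, 14 had the centre downstream of the start. Of the member peaks this one was nearest to a limit, 250 bp downstream. Of the ring genes outside the limits, acp2 (a subunit of the actin capping protein) had a Fkh2 centre 1421 bp upstream (normalised tag count 1682.7, rank 33). The fim1 gene (a fimbrin that cross-links actin) had one 1134 bp downstream (412.3, rank 137), far beyond the downstream limit of 250 bp. The caller kept Fkh2 peaks at least 310 bp apart, so no other could be listed nearer to the myp2 Fkh2 peak. The only forkhead word near the myp2 start lay within that distance, 254 bp from the Fkh2 centre and 74 bp from the Sak1 centre. Hence 3 of the 4 Fkh2 peaks and 4 of the 4 Sak1 peaks held the forkhead word within 150 bp of the centre, against 73.7% of all Fkh2 peaks, 71.7% of nuclear Sak1 peaks and 16.5% of gene starts.

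Centres of the 2 factors almost coincided at cdc4 and imp2. They were 4 bp apart at cdc4, 5 bp at imp2 and 30 bp at cdc15. Over all 36 overlapping pairs of a Fkh2 and a Sak1 peak, the median distance was 28 bp (quartiles 7.75 and 43 bp). At myp2 the distance was 180 bp, the largest of the 36, where the next largest was 102 bp. The myp2 peaks shared 15 bp, while at the other 3 genes all 155 bp of the Fkh2 peak lay within the Sak1 peak.

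**Figure D2:**
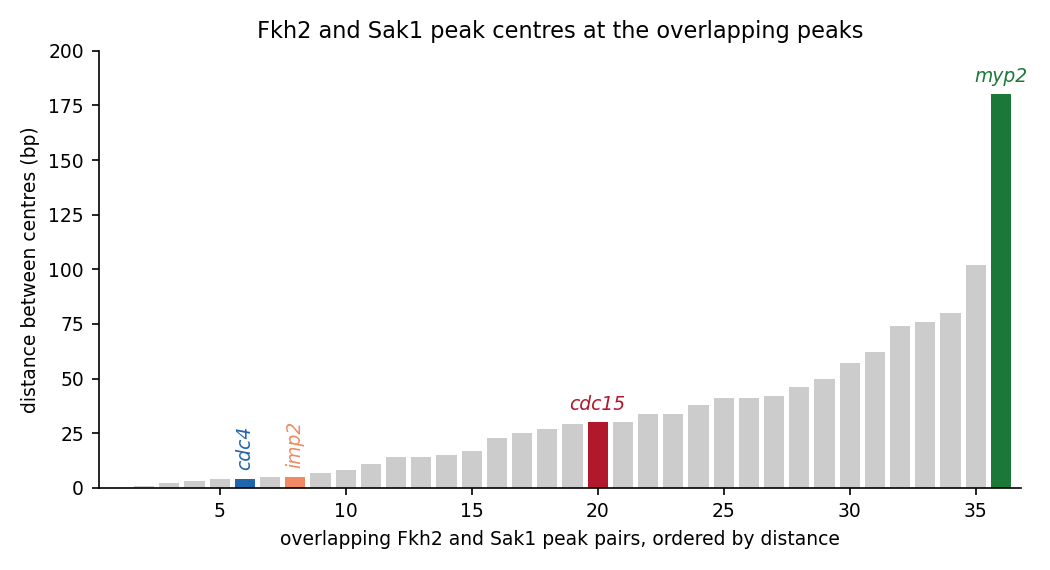
Distance in bp between the Fkh2 and Sak1 centres for each of the 36 overlapping pairs, in order, with the 4 ring genes coloured. The pairs at cdc4 (4 bp) and imp2 (5 bp) stand near the left end, cdc15 (30 bp) in the middle, and myp2 (180 bp) at the right end.

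Among the members, the F-BAR genes cdc15 and imp2 had strong peaks in the Fkh2 list and the myosin genes cdc4 and myp2 weak ones. Normalised tag counts are the authors' tags in a peak per 10000000 tags of the library, and intervals are exact 95% Poisson intervals for the tags counted, covering counting error only. At cdc15 the Fkh2 peak had a normalised tag count of 2617.5 (interval 2316 to 2947, 273 tags), which ranked 15 of 152. At imp2 the count was 2003.9 (1741 to 2295, 209 tags), rank 23. Both stood above the list median of 894.1, by 2.93 and 2.24 times.

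The cdc4 and myp2 peaks fell below that median. The Fkh2 peak at cdc4 had a normalised tag count of 613.6 (interval 472.6 to 783.6, 64 tags), rank 107. At myp2 the count was 479.4 (355.8 to 632, 50 tags), rank 130, between neighbours in the list at 489 and 460.2. The intervals of cdc15 and imp2 did not overlap, those of cdc4 and myp2 did, and cdc15 and imp2 both stood clear of cdc4 and myp2. Among the 36 Fkh2 peaks that overlapped a Sak1 peak, cdc15 ranked 11, imp2 16, cdc4 34 and myp2 last, at 36.

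The Sak1 list gave a different order and a narrower spread. At cdc15 the Sak1 peak had a normalised tag count of 2062.5 (interval 1759 to 2403, 164 tags), rank 21 of 47. The myp2 peak followed with 1647.5 (1377 to 1955, 131 tags), rank 27. At imp2 the count was 1320.5 (1080 to 1599, 105 tags), rank 32, and at cdc4 it was 1270.2 (1035 to 1543, 101 tags), rank 34.

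The list median was 1848.7, so cdc15 alone stood above it, by 1.12 times. Neighbours in the Sak1 order (cdc15 and myp2, myp2 and imp2, imp2 and cdc4) had overlapping intervals, while cdc15 stood clear of imp2 and cdc4. Myp2 thus had the lowest count of the 4 in the Fkh2 list and the next to highest in the Sak1 list. Set side by side, the Fkh2 count was 1.27 times the Sak1 count at cdc15, 1.52 times at imp2, 0.483 times at cdc4 and 0.291 times at myp2, and the median over the 36 pairs was 0.978. Each ratio compares windows called separately, and at myp2 these share 15 bp, so its ratio compares different places. Fkh2 peaks are 155 bp wide and Sak1 peaks 235 bp, and per bp the ratios were 1.92, 2.3, 0.732 and 0.441 in the same order of genes. The efficiency of the immunoprecipitation was not measured in either library, so the ratios do not compare the binding of the factors.

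**Figure D3:**
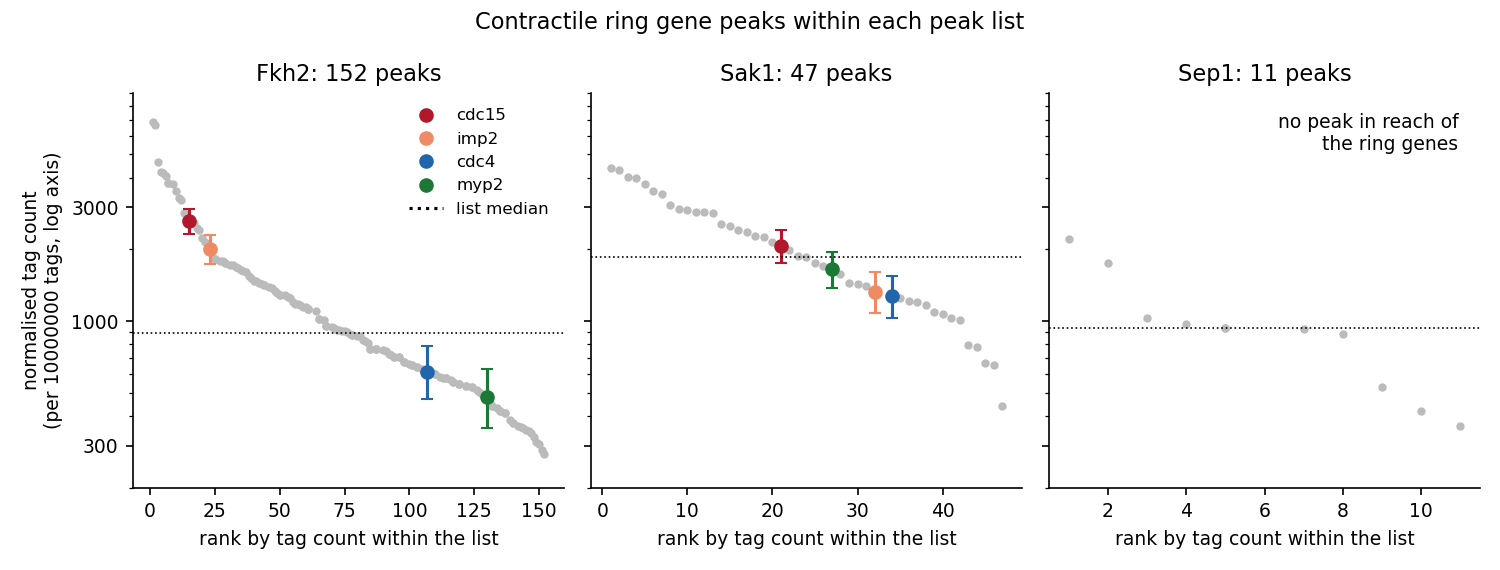
Normalised tag count (per 10000000 tags, log axis) against rank within the Fkh2, Sak1 and Sep1 lists, with the ring genes coloured, their bars giving the exact 95% Poisson interval, and the list median dotted. In the Fkh2 panel cdc15 and imp2 lie above the median and cdc4 and myp2 below it, in the Sak1 panel the 4 genes lie close together, and the Sep1 panel has none.

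The untagged control had few tags at all of these places. Within the Fkh2 peaks it gave 3 tags at cdc15, 6 at imp2, 3 at cdc4 and 5 at myp2, where the mean over the genome is 5.98 for that width. Within the Sak1 peaks it gave 5, 8, 4 and 4 tags at the same genes, below the mean of 9.06 for the wider window. The median over all peaks was 4 control tags in the Fkh2 list and in the Sak1 list. Above it were imp2 in both lists, myp2 in the Fkh2 list and cdc15 in the Sak1 list. No fold in this set rests on the lowest control value listed, 0.5 tags. Each divides by 3 to 8 control tags, however, and no interval was computed for the folds. The fold over control in the Fkh2 list was 42.6 at cdc15, 16.2 at imp2, 9.94 at cdc4 and 4.66 at myp2, against a list median of 10.6 and a required 4. In the Sak1 list it was 20.0 at cdc15, 8.02 at imp2, 15.4 at cdc4 and 20.0 at myp2, with a list median of 18.3.

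Read by fold, the order in the Fkh2 list stayed the same as by tag count, with ranks 24, 52, 79 and 139 for cdc15, imp2, cdc4 and myp2. In the Sak1 list imp2 became the lowest of the 4, at rank 41. Imp2 had the most control tags of the 4 genes in both lists. The fold over the surrounding 10000 bp was 16.4 at cdc15 and 14.4 at imp2 in the Fkh2 list, and 4.52 at cdc4 and 4.17 at myp2, just above the required 4. It ran from 5.43 to 7.69 in the Sak1 list. The focus ratio, the caller's share of tags placed on either side of the centre as a point source gives, was 0.951 for the Fkh2 peak at imp2, rank 6 of 152, then 0.871 at cdc15, 0.819 at cdc4 and 0.761 at myp2, with a list median of 0.809.

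**Figure D4:**
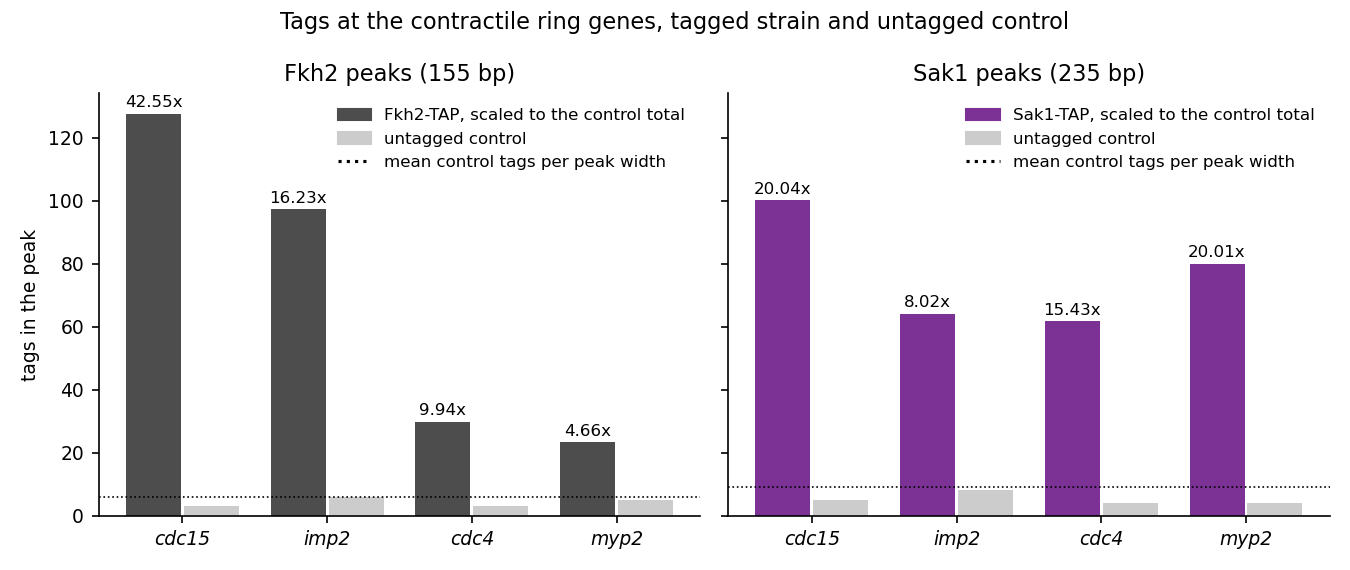
Tags in the Fkh2 and Sak1 peaks of each ring gene, scaled by the authors to the total of the untagged library (dark bars), beside the tags of the untagged control in the same window (grey bars), with the fold written above. The dotted lines are the mean control tags per peak width, 5.98 and 9.06, and the control bars run from 3 to 8 tags.

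No Sep1 peak was in reach of the 4 genes. The nearest Sep1 centres lay 166 kb from imp2, 169 kb from cdc15, 448 kb from cdc4 and 688 kb from myp2. The weakest Sep1 peak listed had a normalised tag count of 364, and a lower signal at the ring genes would not be detectable from a peak list. The Sep1 culture also had the bortezomib treatment, which cannot be told apart from the factor.

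Some of the peaks reached a neighbouring gene as well. At cdc15 the start of not1, a subunit of the CCR4-Not complex that acts on messenger RNA, faces the other way across 224 bp. The Fkh2 centre lay 74 bp from the cdc15 start and 151 bp from the not1 start, and the Sak1 centre 44 and 181 bp. The words of cdc15 thus lie upstream of both genes, and the lists cannot assign the peak to one of them. At imp2 the divergent neighbour tam11 was in reach from 889 bp (Fkh2) and 884 bp (Sak1), and at cdc4 SPAP8A3.07C, annotated as a phospho-2-dehydro-3-deoxyheptonate aldolase, from 915 and 911 bp. These lie just inside the 1000 bp limit.

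At myp2 no other protein-coding gene had its start in reach. The gene upstream, SPAC4A8.06C (annotated as an esterase/lipase), runs in the same direction and ends 97 bp before myp2 begins, so the Sak1 peak of 235 bp covers that whole gap and part of both genes. Long noncoding RNA starts in reach were SPNCRNA.1073 at cdc4, 79 bp from the Fkh2 centre, and SPNCRNA.837 at myp2, 137 bp from the Sak1 centre. Such genes are dense in this annotation, with 7133 in the nuclear genome and one starting within 1000 bp, on either side, of 72.5% of protein-coding gene starts.

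Other genes of division were read against the shares over all genes, 2.84% for Fkh2 and 1.06% for Sak1. A list of 26 genes linked to the ring, here called ring genes, also held for3, pom1 and cdr2. Of these 26, 4 had a Fkh2 peak and 4 a Sak1 peak in reach, which are the members and were chosen for it. The other 22 genes had no peak of any factor in reach, and at those shares a list of this length would hold few or none. They include myo2 (the essential type II myosin heavy chain), rlc1 (the regulatory light chain), cdc12 (the ring formin), cdc3 (profilin), cdc8 (tropomyosin), act1 (actin), rng2 (an IQGAP protein) and mid1 (an anillin that places the ring). Their median distance to the nearest centre was 22.7 kb in the Fkh2 list and 56.8 kb in the Sak1 list.

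The relatives of the 4 genes had no peak in reach, which is near the shares over all genes, and the genes with peaks in these families are those chosen for them. Of 5 myosin heavy chain genes (myp2, myo2, myo1, myo51 and myo52) myp2 was the 1 with peaks. Of 4 EF-hand genes (cdc4, rlc1, cam1 and cam2) it was cdc4. Of 5 F-BAR genes (cdc15, imp2, rga7, rga8 and bzz1) it was cdc15 and imp2. None of the 5 septin and anillin genes (spn1, spn2, spn3, spn4 and mid2) had a peak in reach.

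Of 12 septum genes, 2 had a Fkh2 peak and 2 a Sak1 peak in reach, and ags1 had both, where 2.84%, 1.06% and 0.88% of all genes did. These counts are above the shares over all genes but rest on 3 genes. The septum list was chosen with earlier results of these data known, so the counts are a description only. The ags1 gene encodes an alpha-glucan synthase, and its Fkh2 peak had a normalised tag count of 1385.4, rank 46, 189 bp upstream of the start, and its Sak1 peak 1748.1, rank 25, 132 bp upstream. The chs2 gene, of the chitin synthase family, had a Fkh2 peak of 1423.8, rank 44, 98 bp upstream. The eng1 gene, a septum glucanase that separates daughter cells, had a Sak1 peak of 1433.7, rank 30, but 940 bp upstream, just inside the limit. Just outside it were bgs4 (a beta-glucan synthase), with centres 1157 bp (Fkh2) and 1123 bp (Sak1) upstream, and art1, with a Fkh2 centre 1200 bp upstream. Further out was bgs3, with centres 1854 bp (Fkh2), 1956 bp (Sak1) and 1789 bp (Sep1) upstream.

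**Figure D5:**
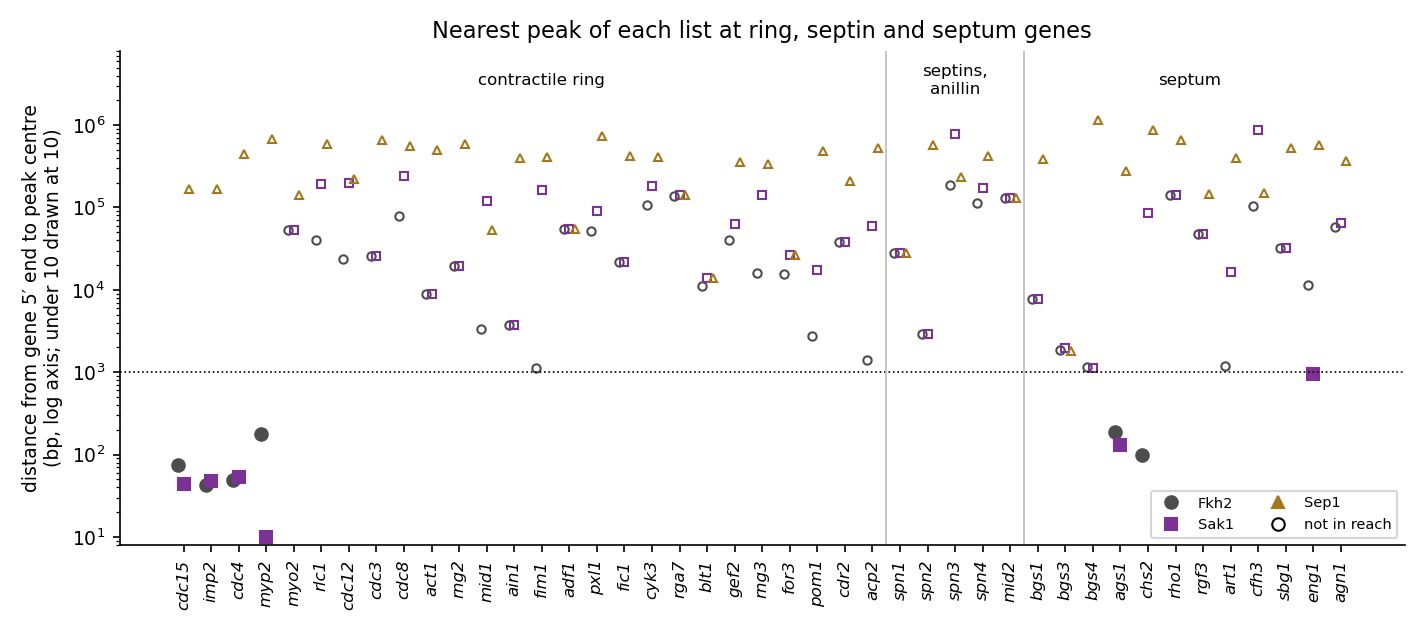
Distance in bp (log axis) from the 5′ end of each ring, septin and septum gene to the peak centre in the Fkh2, Sak1 and Sep1 lists, for the peak in reach (filled symbols) or otherwise the nearest one (open symbols), with the upstream limit of 1000 bp dotted. Filled symbols stand at the 4 ring genes, ags1, chs2 and eng1, and all Sep1 symbols are open.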

How the data were processed

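Peak lists of 3 tagged strains were used, 1 per factor, each pooling 2 experiments per the labels. The tools named in the submitters' processing notes are HOMER, SAMtools 0.1.18 and Bowtie2 2.1.0. A genome build is not given in the sources used here. HOMER findPeaks, per the file headers, called each list against the untagged library with a false discovery rate of 0.001, 4 fold over the control and over the local 10000 bp, and a p-value limit of 1e-04. The library totals were 1042989 (Fkh2), 795148 (Sak1) and 906632 (Sep1) tags, and the scaling of the lists implies about 486279 control tags. The deposited normalised tag counts and control tags are a signal, the folds are a ratio by the authors' caller, the deposited focus ratio is a fraction, and the deposited findPeaks score and the p-values of the authors were not used.

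Coordinates were read on ASM294v3 with its RefSeq annotation, on which 112 of 152 Fkh2 peaks held the forkhead word within 150 bp of the centre. Normalised counts times the library total gave multiples of 0.5 tags for 100% of peaks (within 0.05 of a tag), and intervals were computed from these with SciPy 1.17.1. No test was made between factors, since each has 1 list. The members, words and gene lists were chosen with earlier results of these data known. Of the 47 Sak1 peaks 1 lies on the mitochondrial genome and was left out of the word search. The text names the members, neighbours in reach of their peaks and list genes with a peak, and other genes of the lists as examples chosen after their values were seen. Genes with paired half-sites at their starts or peaks are named in the closing section. All 200 peaks planted at known distances and 200 planted words were recovered as made in a check on simulated data. Alternatives changed the reach, the gene start, the threshold, the overlap, the ranking, the words and the word window.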

Additional observations from a re-analysis of the deposited data

How the results depend on the processing

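Of 112 alternative values, 88 kept a count within 1.5 times, or a rank within a 95% binomial interval. That interval treats the rank as a binomial count, so it serves as a cut-off and measures no sampling spread. Many of the 88 are counts of 0 that stayed 0, and most ring list counts repeat the member counts. A fall from 4 genes to 3 also counts as kept, so the tally does not measure stability. In the upper 50% of each list by tag count, 2 members kept a Fkh2 peak (cdc15 and imp2) and 1 a Sak1 peak (cdc15), and ring list counts were the same; no septum gene kept a Sak1 peak (0). The weak Fkh2 peak at myp2 was lost, leaving 3 genes, reaching from 500 bp before the start to 0 bp after it, at 8 fold over the control, and with control tags raised to their mean. It was also lost as an overlap when 50% of the shorter peak, or centres within 50 bp, were required. Septum genes moved most: reaching from 2000 bp before to 500 bp after the start, 5 had a Fkh2, 4 a Sak1 and 1 a Sep1 peak, with the coding start 1 had a Fkh2 and 0 a Sak1 peak, and with the short reach 1 had a Sak1 peak. Of 16 alternative ranks 9 moved by that cut-off, among them imp2 in the Fkh2 list (rank 52 by fold over control). Counts of 64 and 50 tags limit the order of cdc4 and myp2. No paired analysis was possible because each factor has 1 pooled list.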

Other observations

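Half-sites arranged as at cdc15, imp2 and cdc4 (GCAAC, 0 to 3 bases, GTTGC) lay at 11 gene starts, which stand for 10 places because cdc15 and not1 share one. These places were listed after the sequences of the ring genes had been read. Of the 11 gene starts, 4 had a Sak1 peak in reach, and these were cdc15, not1, imp2 and cdc4. A Fkh2 peak was in reach of the same 4 and of spn5, a meiotic septin gene. The spn5 window held a forkhead word and the half-sites 184 bp upstream of the start, but its Fkh2 peak (normalised tag count 939.6, rank 71, 7.61 fold over the control) was centred 986 bp upstream, just inside the 1000 bp limit. The other 6, dsd1, fah2, mug184, npp106, prp22 and rrp46, had no peak of any list in reach. Of these, prp22 was the 1 whose window held a forkhead word. All 4 starts with a Sak1 peak held one, but they are the members whose sequences defined the arrangement and not1, which shares the cdc15 place. The members were chosen for their Fkh2 and Sak1 peaks, so the starts with and without a peak cannot be compared.

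Half-sites arranged as at myp2 lay at 13 gene starts, and 2 had a Sak1 peak in reach, myp2 and qtr1, a queuine tRNA-ribosyltransferase gene. The Sak1 peak at qtr1 was centred 13 bp upstream of the start, with a normalised tag count of 2502.7, rank 15, and no Fkh2 peak was in reach. At rcl1, an rRNA processing gene, the Fkh2 peak was centred 29 bp upstream (1629.9, rank 36) and no Sak1 peak was in reach. At fes1, an Hsp70 nucleotide exchange factor gene, the Fkh2 peak was centred 939 bp upstream (556.1, rank 117), and no Sak1 peak was in reach. The other 9 starts had no peak of any list in reach, and of these cyp4 and nup37 held a forkhead word. Outside the gene-start windows, this arrangement also lay within 150 bp of both a Sak1 and a Fkh2 centre at bet1, fyu1 and cdc25 (Sak1 ranks 10, 13 and 16). At ecm33 it lay that near to a Fkh2 centre only (Fkh2 rank 3). With so few places in either arrangement, no test was made.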
